A study of Mus musculus with 12 samples.

Results

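The Fli1 promoter contacts are the chromosomal regions found ligated to a single captured fragment at the start of Fli1 on mouse chromosome 9. They were chosen as every region of the deposited interaction table whose bait has the chromosome and start position listed for Fli1 among the captured genes. This gave 17 contacts of 842 in the table, of which 414 belong to the 24 baits with a listed gene name. Of the 17 Fli1 contacts, 6 were marked in the table as overlapping a RING1B peak shared with PCGF2 (PCGF2 sites below) and 11 were not (other sites). The choice used positions and this mark, and no read count. The table itself held only regions with a CHiCAGO score of at least 5 somewhere among the libraries, so a contact called in 1 group only had to be high there.

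CaptureC measures which DNA fragments lie close to a chosen fragment in crosslinked nuclei: chromatin is cut with DpnII, neighbouring ends are ligated, and ligation products of the chosen promoter are pulled out with biotinylated oligos and sequenced. All 12 samples were E14 mouse embryonic stem cells (ESCs), 3 biological replicates in each of 4 groups. PRC1CPM cells, listed as clone 41, carry the Ring1a I50A/D53K mutation, a Ring1b allele pair that can be switched from wild type to I53A/D56K, and ERT2-Cre at Rosa26. They were taken untreated (PRC1CPM_UNT, 0 h) or after 72 h in 800 nM 4-hydroxytamoxifen, OHT (PRC1CPM_OHT), so the RING1A mutation was present on both sides of that comparison. PRC1DEG cells express Tir1, lack Ring1a (Ring1a-/-) and carry RING1B fused to an auxin-inducible degron (Ring1bAID), and their control line carries Tir1 alone. Both received 0.5 mM auxin for 6 h (PRC1DEG_AUX and Control_AUX), so that pair differs in Ring1a, in the tag and in degradation together, and these cannot be told apart. No expression was measured in these files, so cell identity was not checked by markers.

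Fli1 encodes an ETS-family transcription factor best known in blood and endothelial development, and it was captured as one of a set of Polycomb target genes of ESCs. Polycomb repressive complex 1 (PRC1) is built on RING1A or RING1B, which ubiquitinate histone H2A, and PCGF2 marks the canonical form that binds H3K27me3 through a CBX subunit. Canonical PRC1 is known for bringing distant Polycomb sites together. PCGF2 sites are therefore the places where contacts between silent developmental genes are looked for, and such sites usually lie in CpG islands.

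The Fli1 bait was the DpnII fragment chr9:32541008-32541384 (GRCm38/mm10, 377 bp). Fli1 lies on the minus strand and its annotated start is at 32541595, 211 bp beyond the fragment, so the bait holds part of the 5′ UTR (annotated from 32541209 to 32541595), the first coding bases (32541191 to 32541208) and the beginning of intron 1. It was itself marked as a PCGF2 site. Of its pair of capture oligos, 1 lies in the 5′ UTR and is not shown. The other covers chr9:32541008-32541078 at the intron end of the fragment and is shown because it defines the viewpoint of every value below, with the DpnII recognition sequence in capitals:

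Fli1 capture oligo (plus strand): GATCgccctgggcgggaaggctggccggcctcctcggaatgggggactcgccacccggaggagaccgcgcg

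The next sequences show what the ligated regions look like. In each, every CG dinucleotide is in capitals. The Tbx20 promoter stretch (RefSeq, GRCm38.p6, chr9:24774304-24774553, minus strand, 250 bases directly upstream of the start site) lies mostly in the Tbx20 contact, whose fragment had the highest CpG density of the 17 summit fragments. The next pair are the 300-base windows with the most CG inside the Kcnj5 contact (chr9:32344557-32344856) and inside the intergenic PCGF2 contact between Kcnj1 and the 3′ end of Fli1 (chr9:32409256-32409555), both on the plus strand and outside annotated exons. The last is the window chosen the same way from the contact next to it at an other site (chr9:32416353-32416652, plus strand).

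Tbx20 promoter, upstream: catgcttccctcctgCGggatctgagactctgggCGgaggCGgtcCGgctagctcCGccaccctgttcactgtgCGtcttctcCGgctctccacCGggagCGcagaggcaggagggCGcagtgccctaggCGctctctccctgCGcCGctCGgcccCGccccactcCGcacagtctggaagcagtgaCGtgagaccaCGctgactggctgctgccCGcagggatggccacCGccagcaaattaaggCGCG

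Kcnj5 contact: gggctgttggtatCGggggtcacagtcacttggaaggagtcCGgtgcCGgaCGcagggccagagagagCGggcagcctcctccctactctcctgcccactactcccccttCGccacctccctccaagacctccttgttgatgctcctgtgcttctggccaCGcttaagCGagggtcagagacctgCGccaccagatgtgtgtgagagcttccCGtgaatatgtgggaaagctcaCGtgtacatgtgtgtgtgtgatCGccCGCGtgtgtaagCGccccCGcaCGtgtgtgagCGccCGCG

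Intergenic PCGF2 contact: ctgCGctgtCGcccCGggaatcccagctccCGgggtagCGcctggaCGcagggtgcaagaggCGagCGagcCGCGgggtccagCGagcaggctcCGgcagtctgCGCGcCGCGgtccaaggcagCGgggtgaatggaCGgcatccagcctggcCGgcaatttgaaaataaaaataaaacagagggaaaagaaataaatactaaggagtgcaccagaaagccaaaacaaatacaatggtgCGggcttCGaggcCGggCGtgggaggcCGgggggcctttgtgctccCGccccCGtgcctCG

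Neighbouring contact at an other site: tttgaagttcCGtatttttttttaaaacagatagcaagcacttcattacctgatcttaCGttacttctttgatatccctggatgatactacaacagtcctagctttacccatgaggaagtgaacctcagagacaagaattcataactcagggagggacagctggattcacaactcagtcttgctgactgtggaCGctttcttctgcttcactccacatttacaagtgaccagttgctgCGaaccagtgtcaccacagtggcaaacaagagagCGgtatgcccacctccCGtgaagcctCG

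The Tbx20 stretch held 22 CG in 250 bases. Of the 32841 promoters in the RefSeq table, 14.8% held as many in the 250 bases upstream, where the median was 6. The Kcnj5 window held 20 CG in 300 bases and the intergenic window 27, against 7 in the neighbouring contact at an other site. These windows were picked from contacts of unequal length, 10.55, 8.33 and 5.47 kb. The densest window held 20 to 44 CG at the PCGF2 contacts long enough to have one. At other sites it held 3 to 11, except 43 in the contact over St3gal4. The intergenic window lay 5.13 kb from the middle of the summit fragment, which is the fragment of a contact with the strongest interaction. That summit fragment was itself CpG-poor, with 0.837 CG per 100 bp. The other PCGF2 contacts of Fli1 had summit fragments with 2.41 (Kcnj5), 4.35 (Ets1), 5.56 (Kirrel3), 6.60 (Barx2) and 8.62 (Tbx20) CG per 100 bp, whereas the 11 contacts at other sites had between 0 and 2.11. The median was 4.95 at the PCGF2 contacts of Fli1 and 0.746 at its other contacts. Over all named baits the same medians were 3.06 (130 contacts at PCGF2 sites) and 1.23 (284 at other sites), so the Fli1 median for summit fragments was above the first and below the second. Over whole contacts the PCGF2 median was 2.51 at Fli1 and 2.91 over all named baits, so the first order depends on the measure. At other sites the whole-contact medians were 0.987 and 1.23.

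Annotated start sites of protein-coding genes fell inside 5 of the 6 PCGF2 contacts and 1 of the 11 contacts at other sites. The classes differed in width, with a median of 14 fragments at PCGF2 sites and 1 at other sites. The other-site contact with a start site was the widest, at 33 fragments, whereas those of Ets1 and Tbx20 were single fragments. These counts therefore do not compare equal lengths of sequence, and the share over all named baits was not counted. The genes at the PCGF2 contacts were Ets1, the neighbouring paralogue of Fli1 (chr9:32694078-32696398, 154 kb from the bait), Barx2, a Bar-class homeobox gene (chr9:31911051-31922920, 627 kb), Tbx20, a T-box regulator of heart development (chr9:24774242-24774531, 7.77 Mb), Kcnj5, an inwardly rectifying potassium channel subunit (chr9:32340949-32351498, 196 kb), and Kirrel3, a cell adhesion protein of the immunoglobulin superfamily (chr9:34486541-34489890, 1.95 Mb). The intergenic PCGF2 contact covered chr9:32403563-32411889, 137 kb from the bait. Of a list of 18 genes of this chromosome region, 8 had a contact over the gene, 6 of these over a start site, and 10, Fli1 among them, had none. The list was chosen with earlier results known, so these counts are partly fixed by that choice. Kcnj1, which lies between Kcnj5 and Fli1, was contacted only in its body and only at an other site. No contact of another bait ended inside a Fli1 contact, so every value below was seen from the Fli1 side alone.

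Values are normalised read counts as deposited, averaged over the DpnII fragments of a contact and multiplied here by 1000. The 3 replicates of a group had been merged into 1 value, so there is no spread between replicates, no test between conditions, and no way to say whether a difference exceeds that spread. In place of it, the reads behind each value were recovered from the step size of the values (1 read was worth 1.12 in untreated and 1.22 in OHT-treated PRC1CPM cells, 1.71 in the control line and 1.56 in PRC1DEG cells, for the summed value of a contact), and each change carries a 95% Wilson interval on those reads. These intervals cover counting error only, since PCR reads without molecular identifiers are not independent molecules. The 17 contacts together held 1622 reads in untreated and 874 in OHT-treated PRC1CPM cells, and 1616 in the control line and 759 in PRC1DEG cells. Changes are log2 ratios with a pseudocount of 0.00035 (0.35 on the scale used here), which understates the change of weak contacts. The intervals and the shares of a reference value were computed without the pseudocount, so an interval is not centred on the printed change. The PRC1CPM and auxin experiments were normalised separately, so levels are compared within each only.

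The Ets1 contact, a single fragment over the start of the gene, was the strongest of the PCGF2 contacts per fragment. Its mean normalised count was 40.2 (36 reads) in untreated and 18.3 (15 reads) in OHT-treated PRC1CPM cells, and 56.5 (33 reads) in the control line and 28.2 (18 reads) in PRC1DEG cells. Both perturbed groups were thus at close to equal fractions of their reference, 45.5% and 49.9%. The log2 change was -1.12 (95% interval -1.99 to -0.28) after OHT and -0.99 (-1.82 to -0.19) in PRC1DEG cells.

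The Barx2 contact spread over 20 fragments and 11.9 kb around the promoter. Its mean normalised count was 9.37 (168 reads) untreated, 3.48 (57 reads) after OHT, 21.0 (246 reads) in the control line and 2.82 (36 reads) in PRC1DEG cells. It retained 37.1% of the untreated value after OHT and 13.4% of the control value in PRC1DEG cells, log2 changes of -1.35 (-1.86 to -1.00) and -2.76 (-3.40 to -2.40). The fall was seen in the summit fragment, which went from 29 to 7 reads and from 46 to 4, and in the other 19 fragments, whose mean changed by -1.26 and -2.62.

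The Tbx20 contact, the farthest of the 17, rested on 1, 1, 4 and 1 reads in the order untreated, OHT, control and PRC1DEG, mean normalised counts of 1.12, 1.22, 6.84 and 1.56. It was in the list only through the control line. Its log2 changes, 0.10 (-3.13 to 3.39) and -1.91 (-4.86 to 0.60), have intervals that include 0 in both pairs, and no change was detectable at this depth.

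The Kcnj5 contact held 347, 204, 366 and 175 reads over 20 fragments, mean normalised counts of 19.4 untreated, 12.4 after OHT, 31.3 in the control line and 13.7 in PRC1DEG cells. It kept the largest share of its reference among the PCGF2 contacts other than Tbx20 after OHT, 64.3%, and 43.7% in PRC1DEG cells. The log2 changes were -0.62 (-0.89 to -0.39) and -1.17 (-1.45 to -0.93).

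The Kirrel3 contact lay over the start of a gene 1.95 Mb away and held 32, 12, 41 and 6 reads over 8 fragments, mean normalised counts of 4.46, 1.83, 8.77 and 1.17. In PRC1DEG cells its summit fragment had no read, against 7 in the control line, where a count of 0 allows up to 3 reads. The log2 change was -1.14 (-2.23 to -0.35) after OHT and -2.58 (-4.10 to -1.70) in PRC1DEG cells.

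The intergenic PCGF2 contact held the most reads of all 17, 507, 243, 531 and 233 over 21 fragments. Its mean normalised counts were 26.9 untreated, 14.1 after OHT, 43.3 in the control line and 17.4 in PRC1DEG cells, and its log2 changes -0.92 (-1.15 to -0.71) and -1.30 (-1.54 to -1.10). With the Kcnj5 and Ets1 contacts it accounts for the 3 PCGF2 contacts within 300 kb of the bait.

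**Figure D1:**
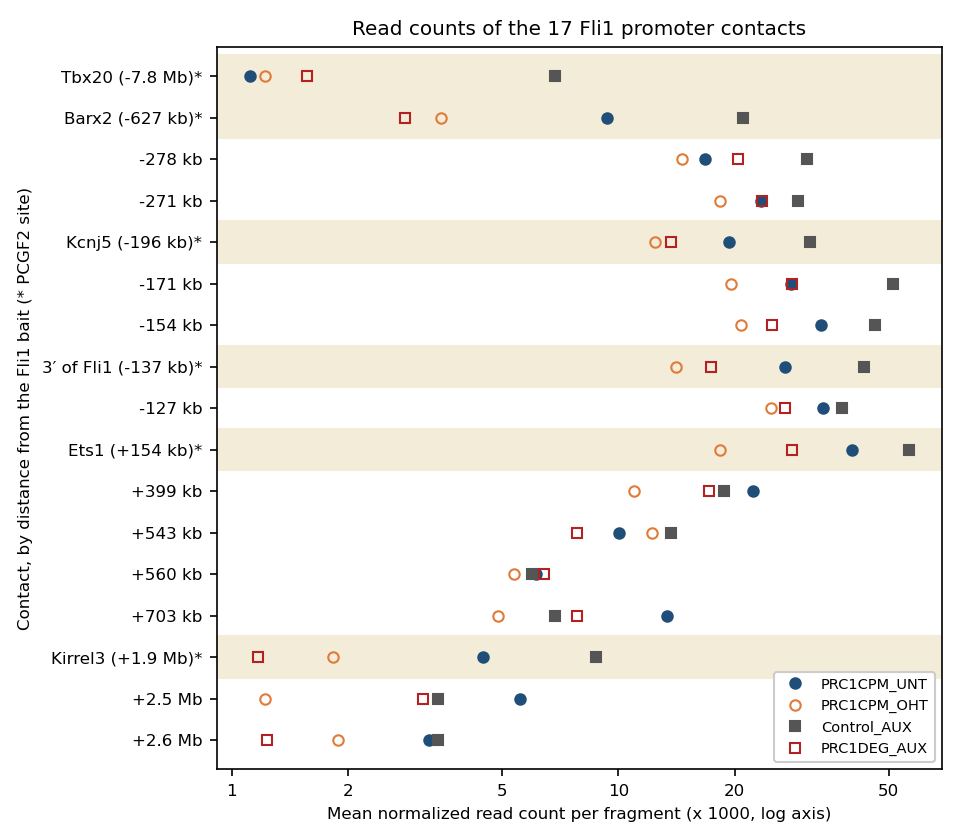
Mean normalised read count per fragment (x axis, times 1000, log axis) of each Fli1 contact (y axis, ordered by position and labelled by distance from the bait) in the 4 groups, 1 merged value per group. Filled symbols are the reference groups and open symbols the perturbed ones, and shaded rows marked with an asterisk are PCGF2 sites, where the open symbols lie to the left of the filled symbols of their own pair in every row except Tbx20 after OHT.

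The median log2 change of the 6 PCGF2 contacts was -1.02 for OHT and -1.60 in PRC1DEG cells, beside -0.91 and -1.79 over the 130 contacts of all named baits at such sites. Lower by at least 1.5-fold were 5 of 6 after OHT (all but Tbx20) and 6 of 6 in PRC1DEG cells, where Tbx20 counts on 4 and 1 reads. Over all 414 contacts of the named baits the same was true of 34.3% and 36.5%, and over their 130 contacts at PCGF2 sites of 75.4% and 90.0%, so the Fli1 counts were near the share of their class. The fall of Tbx20 in PRC1DEG cells was favoured, since it was in the list only through the control line. With values under 3 reads set to 3 reads, its change there was -0.54, short of 1.5-fold. None of the 17 Fli1 contacts was higher by 1.5-fold in either system, against 5.56% of the 414 after OHT and 11.6% in PRC1DEG cells. A two-sided binomial test of the recovered reads, adjusted by Benjamini-Hochberg over all 842 contacts, called 3 of the 6 lower after OHT (Barx2, Kcnj5 and the intergenic contact) and 4 in PRC1DEG cells (the same 3 and Kirrel3), where it called 9.03% and 9.86% of all contacts lower. Of the 130 PCGF2 contacts of the named baits it called 60 and 71. That test compares the merged libraries, not the conditions.

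The contacts at other sites had smaller median changes, -0.51 after OHT and -0.48 in PRC1DEG cells, beside -0.17 and 0.09 for the 284 contacts of all named baits at other sites. Lower by 1.5-fold were 5 of 11 in each system, beside 44 and 34 of those 284, and 2 of the 5 after OHT and 1 of the 5 in PRC1DEG cells rested on 12 reads or fewer a group. All 5 after OHT were in the list only through untreated PRC1CPM cells. Their untreated summit score had to be high, which favoured a fall. Of the 5 in PRC1DEG cells, those upstream of Kcnj1 and at the 3′ end of Arhgap32 were listed only through the control line. The strongest 5 contacts at other sites by mean count all lay between 127 and 278 kb from the bait on the side of the gene's 3′ end. The contact just 3′ of Fli1 (chr9:32412827-32418296, 8 fragments) began under 1 kb from the end of the intergenic PCGF2 contact and held 243, 163, 177 and 138 reads. Its mean normalised counts of 33.9, 24.9, 37.8 and 27.0 gave log2 changes of -0.44 (-0.73 to -0.16) and -0.48 (-0.81 to -0.17), about the median of its class.

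The contact in the body of Kcnj1, an inwardly rectifying potassium channel gene of the kidney (chr9:32386965-32388171), had counts of 33.5, 20.7, 46.2 and 25.0 and changed by -0.68 (-1.54 to 0.16) and -0.87 (-1.76 to -0.01). The one upstream of Kcnj1 (chr9:32369449-32371081) had counts of 27.9, 19.5, 51.3 and 28.2 and changed by -0.51 (-1.41 to 0.38) and -0.86 (-1.70 to -0.03). At Arhgap32, the contact at the 3′ end of the gene (chr9:32262111-32264201) changed by -0.19 (-1.26 to 0.88) and -0.59 (-1.61 to 0.41), and the one beyond it (chr9:32269394-32270537) by -0.35 (-1.30 to 0.58) and -0.31 (-1.29 to 0.67). Each of these 4 was a single fragment with 12 to 30 reads in each group's merged value, and the perturbed value was below its reference in all 8 comparisons while the interval excluded 0 in 2.

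Beyond 300 kb the contact over St3gal4, a sialyltransferase gene, and the non-coding gene 4930581F22Rik at its promoter (chr9:35107574-35122122, 33 fragments, 2.58 Mb) was the one contact at an other site that held a coding start site. It held 96, 51, 66 and 26 reads and fell to 58.1% of the untreated value after OHT and 36.0% of the control value in PRC1DEG cells, log2 changes of -0.69 (-1.27 to -0.30) and -1.25 (-2.12 to -0.82). The latter was the largest fall at an other site with 20 reads or more in PRC1DEG cells. As a log2 change with the pseudocount it lay between the values of Kcnj5 (-1.17) and the intergenic PCGF2 contact (-1.30). By the share of the control value retained, 36.0%, the St3gal4 contact was below both (43.7% and 40.1%), so this order depends on the measure. The RefSeq promoter of St3gal4 held 25 CG in the 250 bases upstream (10.7% of promoters held as many), and the densest 300 bases of the contact held 43 CG, near the 44 of the Ets1 contact. The mark in the table says only whether a PCGF2 site lay there, and RING1B sites without PCGF2 were not distinguished.

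The largest fall after OHT at an other site with 20 reads or more was at chr9:32939602-32940720, 399 kb away, from 20 to 9 reads (-1.00, -2.13 to 0.08). This contact was in the list only through untreated PRC1CPM cells (summit score 8.01), so its untreated count had to be high and a fall from it was favoured. In the auxin pair the same contact had 11 and 11 reads (-0.13, -1.30 to 1.04). No such contact rose after OHT, and the largest rise in PRC1DEG cells was 0.09 (-0.55 to 0.74) at chr9:33097521-33100982, from 35 to 41 reads. The other 3, at 543 kb, 703 kb and 2.49 Mb, the last in the body of Kirrel3, held 12 reads or fewer in every group, and their intervals all included 0.

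**Figure D2:**
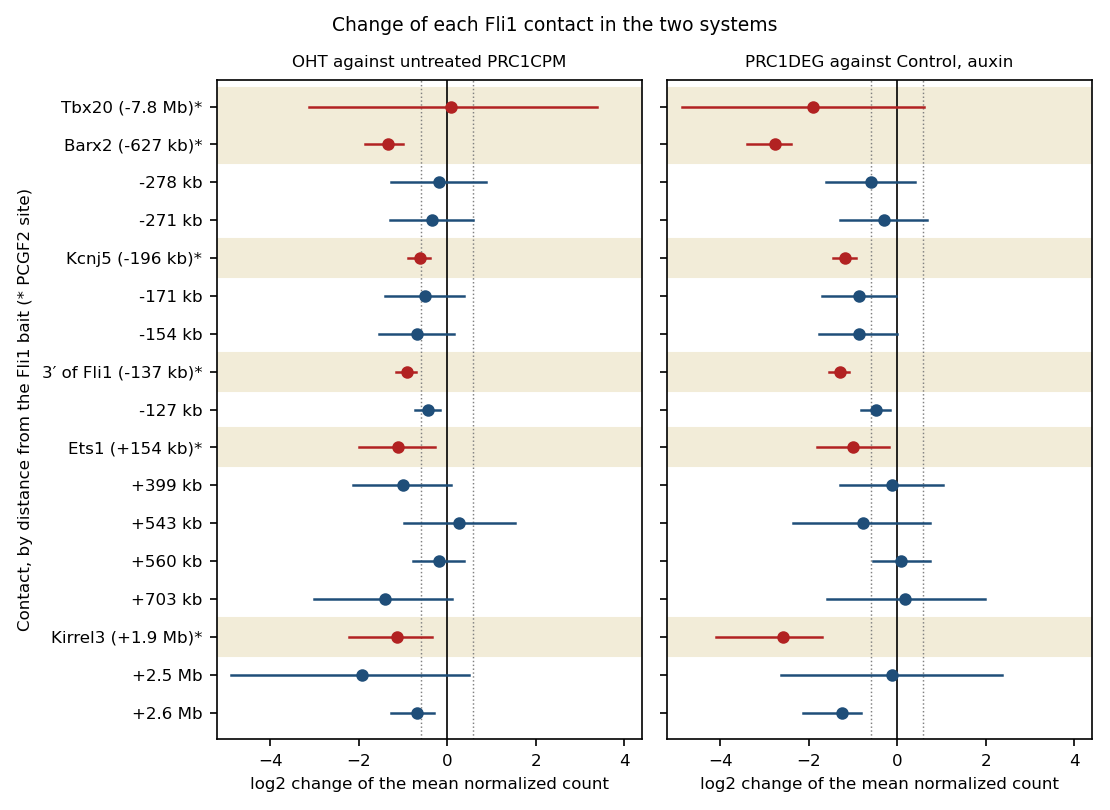
Log2 change of the mean normalised count (x axis, points) of each Fli1 contact (y axis, ordered by position, PCGF2 sites shaded and in red) after OHT (left) and in PRC1DEG cells against the control line (right), with 95% Wilson intervals from the recovered reads as lines. Dotted lines mark 1.5-fold. The intervals of 5 of 6 PCGF2 contacts lie below 0 in each panel, and those of 2 and 4 of the 11 other contacts. Over all named baits the same held for 74 and 90 of 130 PCGF2 contacts, and for 21 and 18 of 284 others.

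CHiCAGO scores, which weigh the reads of a fragment against those expected at its distance, were also lower in the perturbed groups. The median of the mean score per fragment over the 6 PCGF2 contacts was 3.99 untreated and 1.29 after OHT, and 5.98 in the control line and 0.802 in PRC1DEG cells. At other sites the medians were 4.83 and 3.01, and 3.40 and 2.05. The summit scores of Barx2 were the highest of all 17, 18.7 untreated and 34.7 in the control line, and were 3.43 after OHT and 1.03 in PRC1DEG cells. Those of Ets1 were 6.71, 2.55, 6.32 and 2.65 in the order untreated, OHT, control and PRC1DEG, and those of Kirrel3 11.3, 1.68, 8.59 and 0.

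With a summit score of at least 5 as the call, 13 of 17 Fli1 contacts were called in untreated PRC1CPM cells (63.3% of the contacts of the named baits), 2 after OHT (30.0%), 7 in the control line (23.4%) and none in PRC1DEG cells (7.97%). All 6 PCGF2 contacts were called in a reference group and none in a perturbed group. Of the 130 PCGF2 contacts of all named baits, 86 were called in untreated PRC1CPM cells and 69 in the control line. Only 15 were called after OHT and 3 in PRC1DEG cells, so a lack of calls there was usual for the class. Both Fli1 contacts called after OHT were at other sites, the one just 3′ of Fli1 (5.27) and the one at 543 kb (5.05). Because being called somewhere put a region in the list, these counts are partly fixed by that choice. The same holds for changes within the classes so formed, which are given as a description: a contact in the list through 1 reference group was high there, and one not called in the other reference group was low there. For the 8 contacts called only in untreated PRC1CPM cells, 1 of them a PCGF2 site (Kcnj5), the median change in PRC1DEG cells was -0.22 (range -1.25 to 0.18), and their median after OHT was -0.68. For the 3 called only in the control line, the median change after OHT was -0.19 (-0.51 to 0.10), against -0.86 in PRC1DEG cells. The 4 contacts called in both reference groups were Ets1, Barx2, Kirrel3 and the intergenic contact, all PCGF2 sites, with medians of -1.13 and -1.94.

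**Figure D3:**
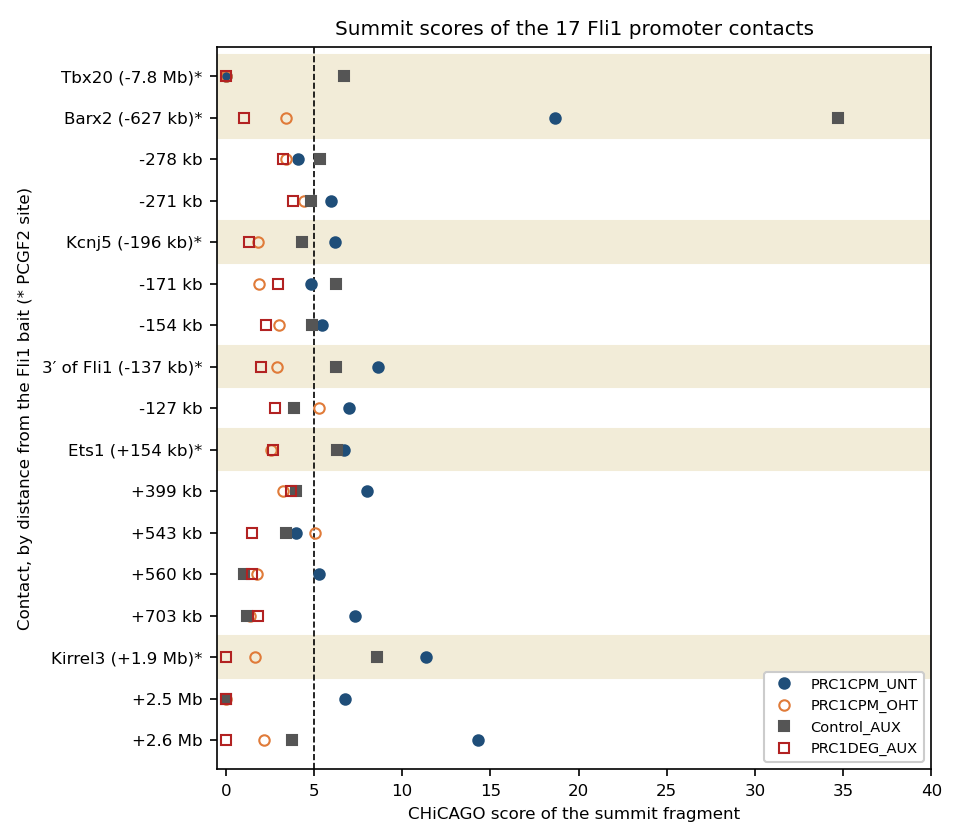
CHiCAGO score of the summit fragment (x axis) of each Fli1 contact (y axis, PCGF2 sites shaded) in the 4 groups, with filled symbols for reference groups, open symbols for perturbed groups and a dashed line at the calling threshold of 5. Both open symbols lie left of the line in every shaded row, and symbols at 0 overlap in the Tbx20 and 2.5 Mb rows.

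The 3 PCGF2 contacts within 300 kb changed by -0.99 to -1.30 in PRC1DEG cells, and Barx2 and Kirrel3, which lie beyond it, by -2.76 and -2.58. Tbx20, also beyond it, changed by -1.91 on 4 and 1 reads and was listed only through the control line. Its value was -0.54 where values under 3 reads were set to 3 reads and -1.03 with 10 times the pseudocount, so it gives no place in this order. After OHT the range was -0.62 to -1.12 for the 3 near contacts and -1.35 to 0.10 for the 3 far ones, and the ranges overlapped. The near contacts held 426 reads in PRC1DEG cells and the far ones 43, most of them at Barx2. At other sites the medians were -0.59 for 5 contacts within 300 kb and -0.12 for 6 beyond it in PRC1DEG cells, and -0.44 and -0.84 after OHT. The 300 kb limit was set after the positions were seen, and no correlation over the points is given because near and far contacts differ in reads.

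**Figure D4:**
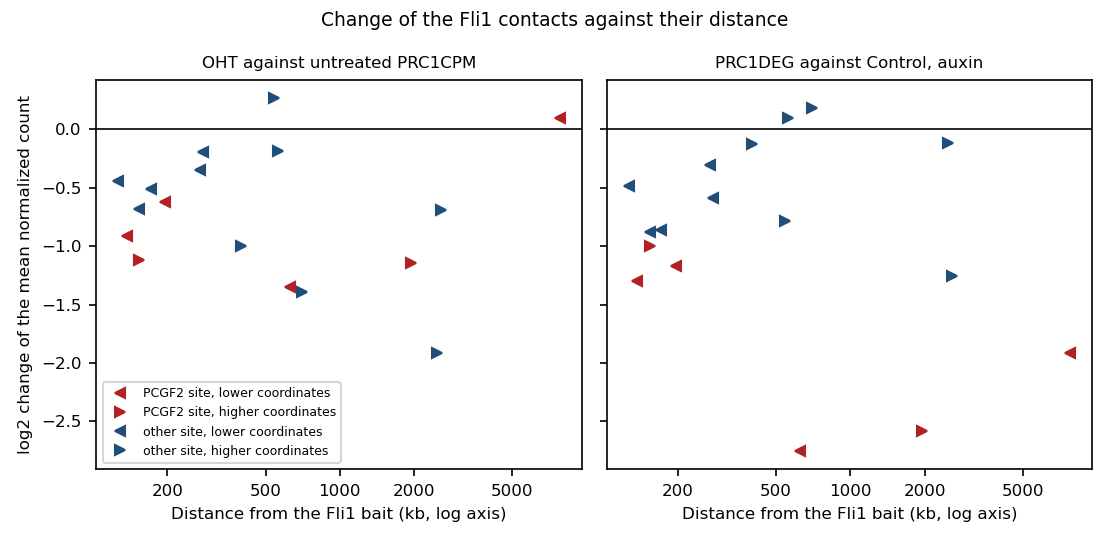
Log2 change of the mean normalised count (y axis) against distance from the Fli1 bait (x axis, kb, log axis) after OHT (left) and in PRC1DEG cells (right), 1 point per contact, red for PCGF2 sites and blue for other sites, with the arrowhead showing the side of the bait. In the right panel Barx2 (-2.76) and Kirrel3 (-2.58) are the lowest points, and the next, Tbx20 (-1.91), rests on 4 and 1 reads.

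The change in PRC1DEG cells was set beside the change after OHT contact by contact, since the 2 pairs share no sample. At PCGF2 sites the difference (PRC1DEG minus OHT) was below 0 in 5 of 6, with a median of -0.98, and -0.61 where values under 3 reads were set to 3 reads. From the reads alone it was -1.47 (95% interval -2.14 to -0.81) at Barx2, -1.61 (-3.18 to -0.05) at Kirrel3, -0.56 (-0.92 to -0.20) at Kcnj5 and -0.38 (-0.70 to -0.07) at the intergenic contact. At Tbx20 it was -2.26 (-7.35 to 2.84) and at Ets1 0.13 (-1.07 to 1.33), which leaves both signs undetermined at this depth. Tbx20, counted among the 5, was in the list only through the control line, which favoured a difference below 0. At other sites the median difference was -0.04 and 6 of 11 were below 0. Over all named baits the medians were -0.71 at PCGF2 sites and 0.20 at other sites. There the difference was below 0 at 111 of 130 PCGF2 contacts and 98 of 284 others, so the Fli1 count at PCGF2 sites was near the share of its class. The systems differ in genotype, agent and time, which cannot be told apart.

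PCGF2 sites took 67.3% of the reads of the listed Fli1 contacts in untreated PRC1CPM cells (95% Wilson interval 64.9 to 69.5) and 60.9% after OHT (57.6 to 64.1). They took 75.6% in the control line (73.4 to 77.6) and 61.8% in PRC1DEG cells (58.3 to 65.2). For the other 23 named baits together the shares were 59.5% and 47.0%, and 61.0% and 34.5%. The summed normalised count of the PCGF2 contacts was 53.3% of the untreated value after OHT and that of the other contacts 70.4%. In PRC1DEG cells these were 35.1% and 67.1% of the control value, whereas the other sites of the remaining named baits summed to 90.2% after OHT and 100.2% in PRC1DEG cells.

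Among the 16 named baits with at least 3 contacts at PCGF2 sites, the median change of Fli1 at such sites was the 7th lowest after OHT and the 12th lowest in PRC1DEG cells. At other sites it was the 4th lowest of 24 baits in both. The auxin values came in 2 sets of baits with a different value of 1 read. In the set of Fli1, which held 6 named baits (Cdh11, Igfbp5, Isl1, Nlgn1 and Zfp503 with it), the medians without Fli1 were -1.65 at 10 PCGF2 contacts and 0.27 at 57 others. By the distance between both medians at PCGF2 sites, Isl1 (-1.22 after OHT, -1.40 in PRC1DEG cells), Hoxb2 (-0.76, -1.44) and Hoxb3 (-0.74, -1.77) were closest to Fli1. The other named baits of chromosome 9 had few PCGF2 contacts. Eomes, a T-box gene, had 5 with medians of -0.37 and -3.87 on 36 and 45 reference reads. Ctdspl, a phosphatase gene, had 2 with -0.50 and -0.84, and Islr2, an immunoglobulin and leucine-rich repeat gene, had 1 with -0.35 and -0.13.

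**Figure D5:**
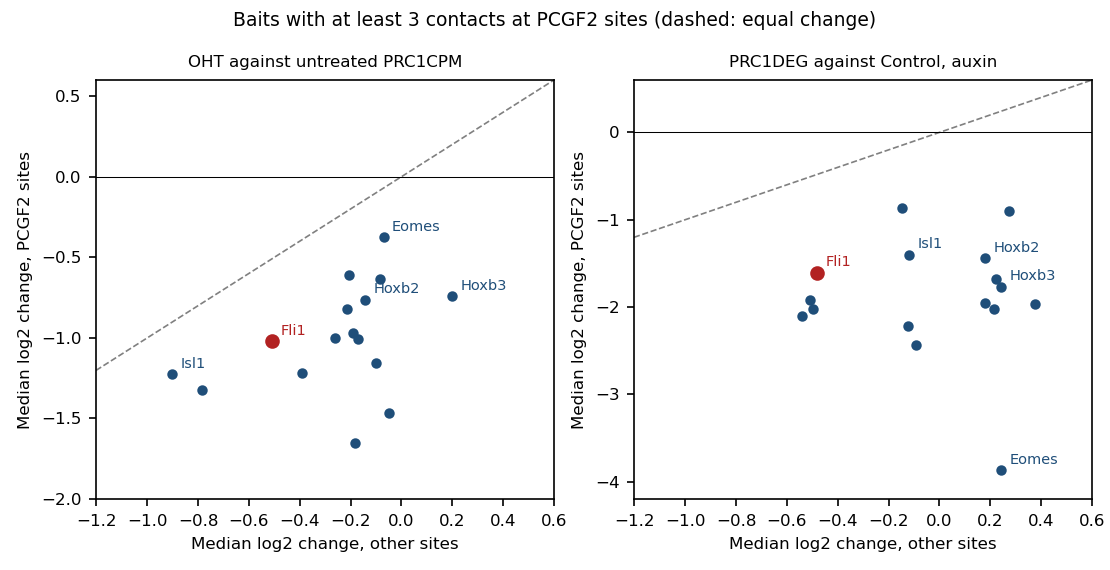
Median log2 change at PCGF2 sites (y axis) against that at other sites (x axis) for the 16 named baits with at least 3 contacts at PCGF2 sites, after OHT (left) and in PRC1DEG cells against the control line (right), with Fli1 in red and the dashed line at equal change. All baits lie below the line in both panels, Fli1 at -0.51 and -1.02 on the left and at -0.48 and -1.60 on the right.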

How the data were processed

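CaptureC was done on 12 samples in 4 groups of 3 biological replicates. Per the study's methods, the authors aligned reads with HiCUP and Bowtie2 (mm10 per the labels), scored interactions with CHiCAGO, merged called interactions lying under 10 DpnII fragments apart, and scaled the weighted reads of merged replicates to the total on all captured promoters and to how many promoters were captured. The deposited values are this signal, summed over the fragments of a contact and at its summit, and CHiCAGO scores, also as deposited sums and summit scores. Both were divided here by the number of fragments.

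The value of 1 read was found per group and bait from the steps of the values, and 100% of 3368 values came out whole within 0.1 reads. Contacts were named from GENCODE M21 (protein-coding, basic), and sequence came from RefSeq GRCm38.p6. All summit fragments of the named baits began with GATC in that genome. Every PCGF2 contact is named, and of the other contacts the 5 with the highest mean count and the largest rise and fall in each system among those with at least 20 reads. The remaining named changes were added after their values were seen. The members and gene lists were chosen with earlier results of these data known. Tools were Python 3.11.15, numpy 2.4.6, pandas 2.3.3, scipy 1.17.1 and matplotlib 3.10.9.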

Additional observations from a re-analysis of the deposited data

Results flagged for a closer look

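The change had opposite signs in the 2 systems at 4 of the 17 Fli1 contacts, and the differences were not tested because each group has 1 merged value. The Tbx20 contact changed by 0.10 after OHT and -1.91 in PRC1DEG cells, on 1 to 4 reads. The contact at 543 kb, in the non-coding gene Gm27166, changed by 0.27 and -0.78 on 5 to 10 reads. The contact at 560 kb changed by -0.18 and 0.094 on 35 to 55 reads, and the one at 703 kb by -1.39 and 0.18 on 4 to 12 reads. The counting intervals of all 8 changes include 0.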

How the results depend on the processing

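Every median change of the Fli1 contacts kept its sign under the 7 alternatives except one: at other sites in PRC1DEG cells it was 0.087 once values were divided by the bait's own summed count at other sites, a scaling that sets that class near 0 by construction. After OHT the medians ranged from -1.12 to -0.53 at PCGF2 sites and from -0.52 to -0.01 at other sites. In PRC1DEG cells the PCGF2 median ranged from -1.70 to -1.10. Taking the summit score, the PCGF2 median in untreated cells was 7.66. Called contacts at a summit score of 3 numbered 16, 7, 14 and 3 (untreated, OHT, control, PRC1DEG), at a score of 10 they numbered 3, 0, 1 and 0, and by the mean score 6, 1, 6 and 0. With a fold of 2, 3 PCGF2 contacts and 3 others were lower after OHT, and 5 and 1 in PRC1DEG cells. By the Wilson interval 2 other contacts were lower after OHT, and by the binomial test 3 PCGF2 contacts and 2 others after OHT and 2 others in PRC1DEG cells. Over all 842 contacts the share lower by 1.5-fold was 26.6% after OHT and 21.3% in PRC1DEG cells. No paired analysis was possible because the deposited columns merge the replicates, and leaving out replicates was not run for the same reason. Of the 17 contacts, 2 had under 10 reads in both groups after OHT and 4 in the auxin pair, and their changes are limited by depth.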
